A study of Arabidopsis thaliana with 12 samples.

Results

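The 8 arrays compared here carry RNA of 1 Xyl-grown *Arabidopsis thaliana* cell line at 2 replicate numbers. They are 4 arrays of replicate 1 and 4 of replicate 2, out of 12 arrays in the series. They were chosen by the replicate number in their labels and paired by sugar species, so that each replicate holds 1 array each of Fru, Glc, Suc and Xyl. Every flask was a 7-d-old suspension grown in the dark in hormone-free medium with 87 mM Xyl as the carbon source, and then given 1 mM of 1 of the 4 sugars for 1 h, Xyl being the control. The cells are a habituated, stem-cell-like line, and no genotype other than that of the line is given. The methods describe homogeneous suspensions split between flasks before treatment and speak of biological replicates, which the study's results call independent. No source used here says whether a replicate number marks a culture, a processing batch or both. Culture and processing batch therefore cannot be told apart. In the main test, with sugar species as a block, the p-values measure how far the 4 paired differences spread around their mean. That spread may be technical, and no p-value here measures the spread between cultures or batches.

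Suspension-cultured plant cells divide without forming organs, and habituated cells do so with no auxin or cytokinin in the medium. Their walls are loosened and rebuilt by expansins, xyloglucan endotransglucosylases and peroxidases, and their nutrient state is read out by genes that respond to phosphate, sulfate or sugar supply. On the ATH1 array a gene is read by a probe set, a group of short probes near the 3′ end of its transcript, and its level is a log2 RMA value, quantile normalized over the 12 arrays. A difference is the mean of replicate 1 minus that of replicate 2 on this log2 scale. A bulk array cannot tell fewer cells of a kind from less RNA per cell.

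The 3′ minus 5′ signals, a sign of RNA quality, did not pass a test between the replicates. The levels of 2 control probe sets did not overlap, as was so for 28.5% of all probe sets. The 3′ minus 5′ signal of the actin control probe sets was 4.33 ± 0.14 (log2, SD, n = 4) in replicate 1 and 4.29 ± 0.13 in replicate 2, and those of GAPDH and ubiquitin differed by −0.02 and −0.05 (replicate 1 minus 2, exact permutation test over arrays, two-sided, p from 0.286 to 0.886 over the 3 controls and 0.857 or more after Benjamini-Hochberg, the smallest p that 4 arrays against 4 allow being 0.0286). The spiked poly-A controls were lowest on the Xyl array in both replicates, 5.79 in replicate 1 and 6.42 in replicate 2, against 6.62 to 7.12 on the other 6 arrays. The 25S rRNA probe set, a sign of carried-over ribosomal RNA, lay between 12.674 and 12.849 in replicate 1 and between 12.858 and 13.107 in replicate 2. Its ranges nearly touched. The GAPDH 3′ probe set was also lower in replicate 1 without overlap (10.58 ± 0.08, SD, n = 4, against 11.08 ± 0.12). Levels of the actin and ubiquitin 3′ probe sets and of the spiked hybridization and poly-A controls overlapped between the replicates. The part of these controls in the results was not tested.

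Of 22746 probe sets, 7555 differed between the replicates (33.2%, limma with sugar as a block, Benjamini-Hochberg adjusted p under 0.05). Of these, 3480 were higher in replicate 1 (15.3%) and 4075 lower (17.9%). Most differences were small, since 62.0% of the called probe sets differed by less than 0.5 and the median absolute difference over all probe sets was 0.15. A difference of at least 2-fold was found for 652 probe sets (2.87%), 417 higher (1.83%) and 235 lower (1.03%). All of the 652 had the same sign in the 4 sugar pairs, and for 649 the arrays of the 2 replicates did not overlap, against 28.5% of all probe sets. Both traits largely follow from the rule that picked the 652 on these same arrays, and they are given as a description. At least 4-fold differences were found for 59 probe sets higher and 26 lower in replicate 1. The plot of difference against level shows differences over 2-fold at most levels, and the genes with the largest differences of both signs at middle mean levels.

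**Figure D1:**
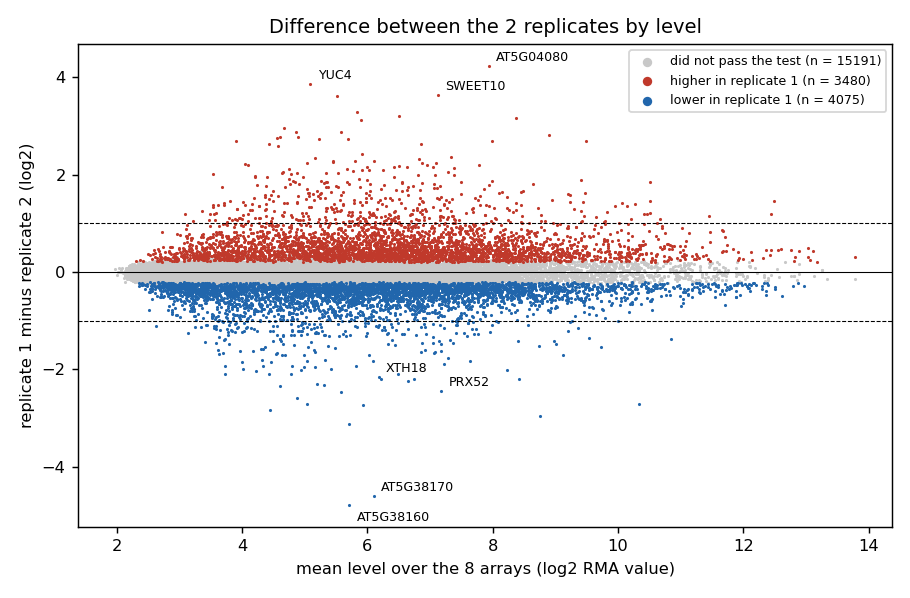
Difference between replicates 1 and 2 (log2, vertical axis) against the mean level over the 8 arrays (log2 RMA value, horizontal axis), 1 point per probe set. Red points passed the test as higher in replicate 1 (3480), blue as lower (4075) and grey did not pass. The dashed lines mark 2-fold, passed by 417 points above and 235 below.

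Large differences were more frequent between the replicates than between sugars on the same 8 arrays. Replicate number held 66.8% of the sum of squares over all probe sets, sugar species 20.6% and the remainder 12.6%. Taken per probe set, the median shares were 30.1% for replicate number (1 degree of freedom), 32.1% for sugar species (3 degrees of freedom) and 20.9% for the remainder, so that the summed share rests on the probe sets that vary most. Among the 8076 probe sets with a mean level of at least 6 the shares were 73.6%, 18.5% and 7.91%, and 4003 of them were called (49.6%), against 3552 of the 14670 dimmer ones (24.2%). In a principal component analysis of these 8 arrays, scores on the leading component (66.9% of variance) ran from 27.4 to 31.9 for replicate 1 and from −30.9 to −28.2 for replicate 2. Probe sets at least 2-fold different numbered 652 between the replicates (4 arrays against 4). Against Xyl (2 arrays against 2) there were 19 for Fru, 11 for Glc and 18 for Suc. The median absolute difference was 0.15 between the replicates and 0.10 to 0.11 between a sugar and Xyl.

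**Figure D2:**
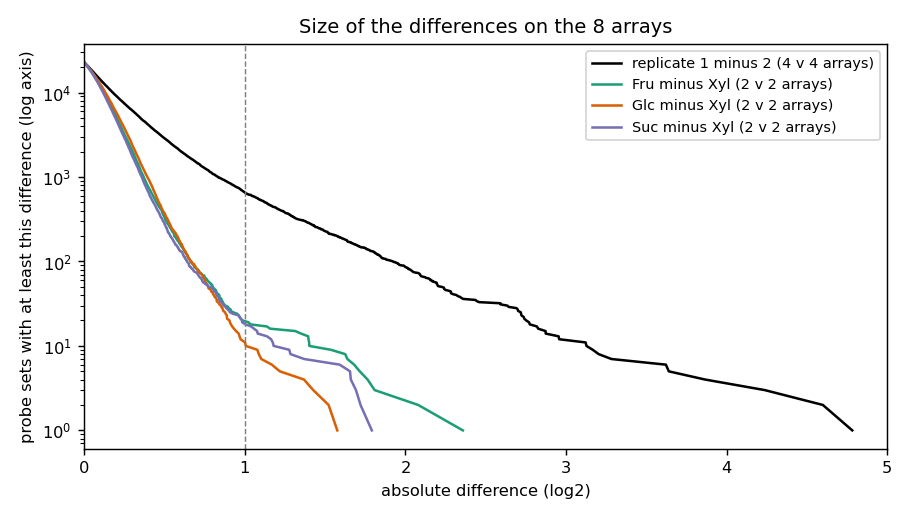
Number of probe sets (log axis) with at least the absolute log2 difference on the horizontal axis, for replicate 1 minus replicate 2 in black and for each sugar minus Xyl in colour. At the dashed line of 2-fold the replicate curve stands at 652 and the Fru, Glc and Suc curves at 19, 11 and 18.

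In limma without a block, at the unadjusted threshold of 0.002 that the methods name, 16 probe sets passed between Fru and Xyl, 14 between Glc and Xyl and 13 between Suc and Xyl on these 8 arrays (0.0703%, 0.0615% and 0.0572% of those tested). Leaving out any 1 array gave 1 to 13, 2 to 18 and 3 to 17, the fewest without Fru replicate 2, Glc replicate 1 and, for Suc, Suc replicate 1 or either Xyl array. With the replicate block, which pairs the arrays by replicate number, 251, 301 and 215 passed (1.1%, 1.32% and 0.945%). None had an adjusted p under 0.05 without the block in limma, where 628, 774 and 562 had an unadjusted p under 0.05, and 43, 8 and 2 did with it. The 4 paired differences went together across probe sets, with correlations from 0.748 to 0.830 over the 6 combinations of sugars, given as a description since probe sets are not independent. The median absolute difference was 0.19 to 0.21 in each of the 4 pairs, with 448 to 490 probe sets at least 2-fold higher and 278 to 348 at least 2-fold lower.

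The gene furthest up in replicate 1 was AT5G04080, followed by the auxin-synthesis gene *YUC4* (AT5G11320, a flavin monooxygenase) and the sugar transporter gene *SWEET10* (AT5G50790). AT5G04080 was read at 10.05, 10.37, 10.16 and 9.65 on the Fru, Glc, Suc and Xyl arrays of replicate 1 and at 5.60, 6.19, 5.87 and 5.62 on those of replicate 2. Its difference of 4.24 (standard error 0.09, 18.9-fold, adjusted p = 2.7e-09 in limma) was far larger than the spread within either replicate. *YUC4* stood at 6.79, 7.24, 7.10 and 6.95 in replicate 1 and at 3.16, 3.39, 2.88 and 3.19 in replicate 2, near the low end of the scale. The 2 sets did not overlap, and the difference was 3.87 (standard error 0.10, adjusted p = 5.8e-09 in limma). *SWEET10* was at 8.83, 8.94, 9.05 and 8.93 in replicate 1 and at 5.22, 5.40, 5.52 and 5.05 in replicate 2, a difference of 3.64 (standard error 0.08, adjusted p = 3.6e-09 in limma). In replicate 3 *SWEET10* lay between 8.39 and 8.92, at the level of replicate 1, while *YUC4* lay between the other replicates at 5.31 to 6.10.

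Further genes higher in replicate 1 include *LCR68*, *Prx37* and *GTR2*. *LCR68* (AT2G02130), which encodes a small cysteine-rich defensin-like protein, was read at 10.89, 10.73, 11.08 and 10.60 in replicate 1 and at 8.34, 8.16, 8.16 and 7.89 in replicate 2 (difference 2.69, standard error 0.08). *Prx37* (AT4G08770), a class III peroxidase gene, was at 6.24, 6.04, 6.50 and 6.43 against 3.08, 3.45, 3.93 and 3.25 (difference 2.87, standard error 0.12). Neither gene's arrays overlapped between the replicates. The glucosinolate transporter gene *GTR2* (AT5G62680) was 4.01-fold higher, with 8.35 to 8.47 in replicate 1 and 6.02 to 6.63 in replicate 2. AT4G14020 was 9.21-fold higher (7.78 to 8.58 against 4.45 to 5.22), and the gene beside it, *RALFL32* (AT4G14010), which encodes a peptide of the rapid alkalinization factor family and was chosen after its values were seen, was 3.11-fold higher. The other 9 of the 15 largest increases were in genes that carry a locus identifier only, with differences from 2.35 (AT5G67090) to 3.13 (AT2G15780), among them AT5G49320 (2.87), AT3G11930 (2.82), AT5G40980 (2.77), AT1G24575 (2.75), AT2G19460 (2.74), AT4G23110 (2.74) and AT5G43870 (2.44). The largest difference of a probe set with no gene name was 3.62 up and 3.12 down.

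**Figure D3:**
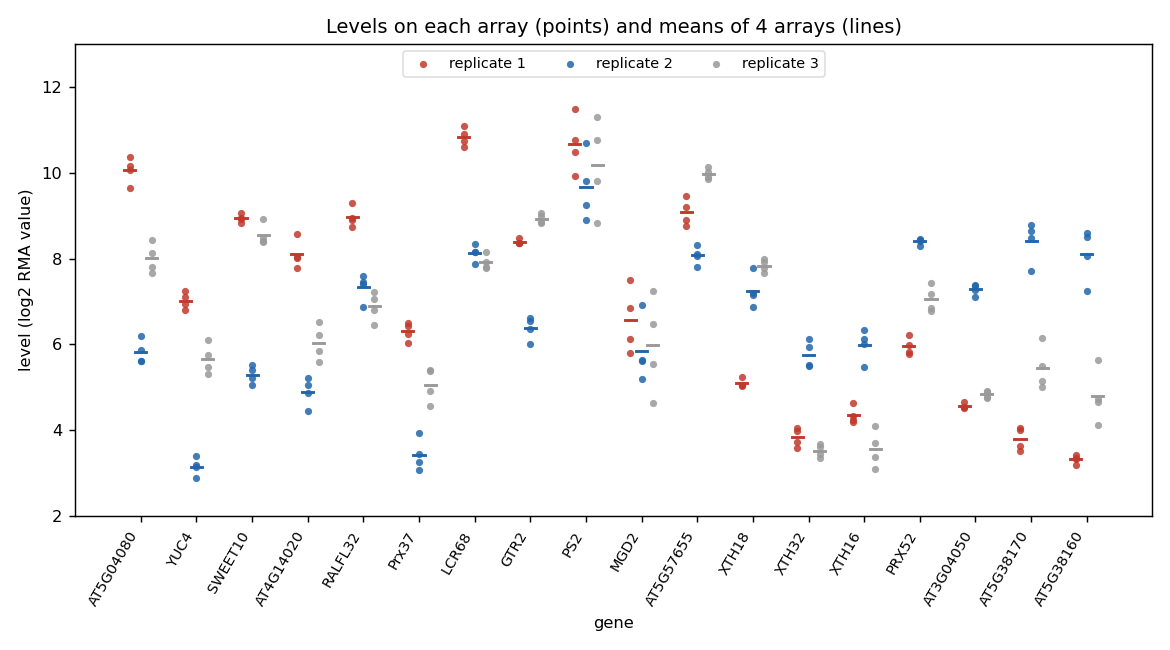
Levels (log2 RMA value, vertical axis) of 18 genes on the 4 arrays of replicate 1 (red), replicate 2 (blue) and replicate 3 (grey), with the mean of 4 arrays as a line. From AT5G04080 to *GTR2*, and for AT5G57655, replicate 1 lies above replicate 2 without overlap, from *XTH18* to AT5G38160 below it without overlap, and for *PS2* and *MGD2* the arrays overlap.

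The genes furthest down in replicate 1 were AT5G38160 and AT5G38170, which are neighbours in locus order. AT5G38160 was read at 3.18, 3.43, 3.32 and 3.35 on the Fru, Glc, Suc and Xyl arrays of replicate 1 and at 7.24, 8.07, 8.49 and 8.60 on those of replicate 2 (difference −4.78, standard error 0.16, 27.5-fold, adjusted p = 2.2e-08 in limma). AT5G38170 lay between 3.53 and 4.05 in replicate 1 and was at 7.71, 8.49, 8.64 and 8.77 in replicate 2 (difference −4.60, standard error 0.20, 24.2-fold). Both were low on every array of replicate 1, and in replicate 2 both were lowest on the Fru array. AT3G04050 was 6.60-fold lower in replicate 1, with 4.52 to 4.66 against 7.12 to 7.40. *PRX52* (AT5G05340), a class III peroxidase gene, was at 5.98, 6.23, 5.83 and 5.78 in replicate 1 and at 8.42, 8.42, 8.46 and 8.29 in replicate 2 (difference −2.44, standard error 0.09, adjusted p = 2.7e-08 in limma). The 2 named peroxidase genes among the largest differences thus moved in opposite directions, *Prx37* up and *PRX52* down.

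The other large decreases were in *CP1* (AT4G36880), a cysteine proteinase gene (−2.09), and in genes with a locus identifier only, AT2G04460 (−2.46, a pseudogene in the reference table), AT2G38870 (−2.30), AT2G03980 (−2.20), AT5G13140 (−2.10), AT1G06340 (−2.09) and AT3G28190 (−2.04). AT2G28010 (−2.83), AT5G37230 (−2.32) and AT2G41730 (−2.19) were read by probe sets whose suffix marks probes that may also bind other transcripts, so their identity is uncertain. In replicate 3 the level of AT2G38870 was 8.30 to 9.15, above replicate 2 (5.92 to 6.58), and that of *CP1* averaged 3.55, near replicate 1 (3.38).

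Xyloglucan endotransglucosylase genes, whose enzymes cut and rejoin the xyloglucan of the cell wall, were 4 lower and 2 higher among 11 members named on the array (17.9% of all probe sets were lower and 15.3% higher), with 3 of them at least 2-fold lower. *XTH18* (AT4G30280) was at 5.04, 5.05, 5.06 and 5.25 in replicate 1 and at 7.21, 6.88, 7.78 and 7.15 in replicate 2 (difference −2.16, standard error 0.13, adjusted p = 9.0e-07 in limma). *XTH32* (AT2G36870) averaged 3.84 ± 0.21 (SD, n = 4) in replicate 1 and 5.76 ± 0.31 in replicate 2, and *XTH16* (AT3G23730) 4.35 ± 0.19 and 5.99 ± 0.36. The arrays of these 3 genes did not overlap between the replicates, and their levels in replicate 1 were low ones. *XTH19*, the neighbour of *XTH18*, was lower by a smaller amount (−0.63, adjusted p = 0.00069, and 0.09 in the fit of all 12 arrays), while *EXGT-A3* (0.64) and *XTH30* (0.33) were higher. The call of *XTH30* was lost without the sugar block and without the Fru or the Xyl pair (adjusted p = 0.051 to 0.056 in limma). Over the 11 members the median difference was −0.13, against −0.03 over all probe sets.

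Other wall gene families had calls in both directions or few calls. Of 19 expansin genes, whose proteins loosen the wall, 4 were higher and 2 lower (31.6% called, against 33.2% of all probe sets), with *EXPA9* 2.31-fold higher at a low level (4.18 against 2.98), *EXPA4* 1.37-fold higher at a high level (12.67 against 12.21) and the expansin-like *EXLA1* lower (−0.66). Of 6 pectin methylesterase and inhibitor genes 1 was higher and 2 lower (50.0%), *PMEAMT* among the latter (−0.99). Of 11 cellulose synthase and related genes 1 was lower and 10 did not pass (9.09% called). The neighbouring β-glucosidase genes *BGLU45* (AT1G61810) and *BGLU46* (AT1G61820), chosen after their values were seen, were both higher in replicate 1, by 1.52 and 1.59 (standard error 0.09 each).

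Of 22 genes on the phosphate starvation list 8 were named on the array, and 7 of these were higher in replicate 1, with a median difference of 0.62 and none lower, against 15.3% higher over all probe sets. The list holds genes that are induced when phosphate runs short. *PS2* (AT1G73010), which encodes a phosphatase, was read at 11.49, 10.76, 10.48 and 9.93 on the Fru, Glc, Suc and Xyl arrays of replicate 1 and at 10.70, 9.25, 9.81 and 8.90 on those of replicate 2. *MGD2* (AT5G20410), which encodes a synthase of the galactolipid monogalactosyl-diacyl-glycerol, was at 7.50, 6.85, 6.13 and 5.81 against 6.93, 5.63, 5.61 and 5.18. Both genes were highest with Fru and lowest with Xyl in each replicate, so that their arrays overlapped between the replicates although each of the 4 pairs was higher in replicate 1. The differences were 1.00 (standard error 0.12, adjusted p = 0.00014) for *PS2* and 0.73 (standard error 0.11, adjusted p = 0.00057) for *MGD2* in limma with sugar as a block. *MGDC* (AT2G11810), the related synthase gene, differed by 0.70, the phosphate transporter gene *PHT1;4* by 0.68 and AT5G20790 by 0.56. The remaining measured members were the acid phosphatase gene *PAP17* (0.38) and *SRG3* (0.37), which passed, and the sulfolipid synthesis gene *SQD1* (0.18), which did not. Without the sugar block 1 of the 8 genes passed, and in the fit of all 12 arrays 3 did, so most of these calls depend on the choice of fit. No measured member of the list lies on the lower arm of chromosome 5, which is described with the chromosomes. The part of position in the values of this or any other list was not tested.

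Of 17 genes of sulfate deficiency and assimilation 5 were measured, 3 of them higher and 1 lower (15.3% and 17.9% over all probe sets). *BGLU28*, a β-glucosidase gene induced by sulfate shortage, was at 5.93, 6.04, 5.61 and 5.50 in replicate 1 and at 4.79, 4.52, 4.42 and 3.97 in replicate 2 (difference 1.34, standard error 0.09, adjusted p = 1.9e-06 in limma), without overlap. *APS3*, an ATP sulfurylase gene, was lower (−0.72), and *LSU1* was higher (0.45, adjusted p = 0.030) but did not pass when the Glc, the Suc or the Xyl pair was left out (adjusted p = 0.10 to 0.15) nor without the sugar block (0.41) or with all 12 arrays (0.17).

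Genes of carbon starvation, the state in which plant cells turn to stores and amino acids, were mostly not called. Of 26 genes on the list 13 were measured, and of these 1 was higher, 1 lower and 11 did not pass (15.4% called, against 33.2% of all probe sets), with a median of −0.05. The higher one was *PPDK*, which encodes pyruvate, phosphate dikinase (7.15 ± 0.19 against 6.23 ± 0.11, SD, n = 4), and its level in replicate 3 was 10.79. The lower one was *AKINBETA1*, which encodes a β subunit of the SnRK1 kinase (−0.67). The class II trehalose-phosphate synthase gene *TPS9* gave −0.09 (adjusted p = 0.52) and *BZO2H3*, the bZIP63 factor, −0.05 (adjusted p = 0.75).

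Of 27 genes of sugar transport and use 6 were measured, 2 of them higher and 3 lower (15.3% and 17.9% over all probe sets). The vacuolar transporter genes *SWEET16* (−0.99, adjusted p = 0.00030) and *SWEET17* (−0.70, adjusted p = 7.6e-05) were lower in replicate 1, and *SWEET17* was read at 6.50 to 6.75 there and at 7.23 to 7.37 in replicate 2. *SWEET2* was higher at a low level (0.26, adjusted p = 0.043 in limma). Its adjusted p was above 0.05 without the Glc or the Xyl pair, at 0.15 and 0.17. The call was also lost without the sugar block (0.071), with all 12 arrays (0.15) and with array weights (0.069). AT5G57655 was higher by 1.00, with 8.91, 8.77, 9.19 and 9.45 in replicate 1 and 8.11, 8.06, 8.33 and 7.81 in replicate 2, and AT2G31390 was lower by a small amount (−0.33). Of 3 measured genes of the hypoxia list *PDC2*, a pyruvate decarboxylase gene, was higher (0.91), and AT4G17260 (−0.17) and AT3G10040 (−0.06) did not pass.

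Histone and cell cycle genes differed by small amounts. Of 6 histone genes 5 were higher (15.3% over all probe sets, and 25.4% among placed ones with a mean level of at least 6, where 5 of the 6 lie), with *HTB2* (AT5G22880), a histone H2B gene, at 11.37, 10.88, 11.59 and 11.21 against 10.80, 10.62, 10.98 and 10.88, which overlap (difference 0.45, adjusted p = 0.0023). *HIS1-3* (0.40), *HTB4* (0.34), *HTB11* (0.27) and *HTB1* (0.24) had adjusted p from 0.010 to 0.040 in limma. Of the 5, 2 passed in the fit of all 12 arrays. *HIS1-3*, *HTB11* and *HTB1* lost the call without the Fru or the Xyl pair, and *HIS1-3* and *HTB1* also without the Suc pair (adjusted p = 0.072 to 0.16 in limma), and *HTB4* without the Suc pair (0.061), while *HTB2* kept it under each alternative. The aurora kinase gene *AUR1*, 1 of 3 named cell cycle genes, was higher by 0.24 (adjusted p = 0.034), and it did not pass without any 1 of the 4 pairs. *AUR2* (−0.17) and *PRL* (−0.08), the others of these 3, did not pass, nor did the histone gene *HTR12* (−0.25). In replicate 3 *HTB2* was at 8.03 and *AUR1* at 4.55, below both other replicates.

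Markers of other cell states the culture could hold were few on the annotated part of the array. Over all probe sets 15.3% were higher and 17.9% lower. The 1 xylem gene and the 2 root hair genes did not pass and lay at 3.92 or less. Of 3 green tissue genes none passed, with differences from −0.14 to 0.24. Of 4 genes of the root meristem and callus the homeodomain gene *WOX13* was higher (0.69) as was *BBM* at a low level (0.46). *LBD16* was lower at a low level (−0.43), and *LBD29* (0.06) did not pass. Of 7 auxin response genes 2 were lower (28.6% called, against 33.2% of all probe sets), *WES1*, which encodes an auxin-conjugating enzyme (−0.66, adjusted p = 0.00010), and AT1G14130 (−0.24, adjusted p = 0.040, and above 0.05 without any 1 of the 4 pairs).

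Stress lists had calls in both directions, as did all probe sets (15.3% higher and 17.9% lower). Of 6 heat shock and chaperone genes AT5G51440 (1.29) and AT5G37670 (0.94) were higher and AT1G53540 lower (−1.02). Of 5 genes of mitochondrial stress AT2G21640 (−1.52, 7.73 to 8.31 against 9.42 to 9.65) and AT5G09570 (−0.54) were lower, and AT5G51440, which is on both lists, was higher. The cold- and clock-regulated gene *COR27* was 2.66-fold higher (5.29 to 5.46 against 3.64 to 4.16). None of 5 anthocyanin genes passed the test in limma, against 33.2% of all probe sets.

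Organelle genes were called no more often than the 33.2% over all probe sets. Of 69 plastid-encoded genes 5 were higher, 8 lower and 56 did not pass (18.8% called), with a median of −0.02. The extremes were *psbA* (3.92 ± 0.31 against 4.92 ± 0.85, SD, n = 4) and *ndhI* (9.71 ± 0.26 against 9.23 ± 0.14). Of 23 probe sets for mitochondrially encoded genes 6 were higher and 1 lower (30.4% called). *nad6*, a subunit gene of complex I, was 2.64-fold higher (6.09 to 6.54 against 4.62 to 5.22), and *nad9* (0.87) and *cox2* (0.78) followed. The arrays of *nad6* did not overlap, and its probe set is of a type whose probes match more than 1 transcript.

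The genes that the study's text names include its qPCR reference. *TUB5* (AT1G20010), a β-tubulin gene, was at 5.79, 5.80, 5.89 and 5.84 in replicate 1 and at 6.97, 6.97, 6.90 and 7.02 in replicate 2 (difference −1.14, standard error 0.07, adjusted p = 1.6e-06 in limma). Its spread over the 4 sugars was 0.05 (SD) within each replicate. Among further qPCR reference genes, which the study's text does not name, AT4G34270 was higher by 0.34. *PEX4* (0.17) and AT2G28390 (−0.14) did not pass. Genes that the text does name went both ways. *TOR* (−0.43), *ERF104* (−0.41) and *MGT10* (−0.25) were lower and AT2G22080 (0.74) and AT3G57540 (0.60) higher, while *URH1* (−0.07), AT5G22920 (−0.25), AT3G25400 (0.24) and AT3G49160 (0.25) did not pass. Without the Fru pair AT5G22920 passed (−0.49, adjusted p = 0.0028), as did AT3G25400 without the Suc pair (0.31, adjusted p = 0.048). *MGT10* lost the call without the sugar block (adjusted p = 0.19) and without the Fru, Suc or Xyl pair (0.097 to 0.16). Of the 290 probe sets that the study listed as sugar-responsive on these arrays, 48 were higher and 50 lower in replicate 1, 33.8% in all against 33.2% of all probe sets.

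The differences followed position along the chromosomes, a pattern seen only after the values were known and given here as a description with no test. A gene was placed through its locus identifier, which numbers genes in order along each chromosome, and 4274 placed probe sets had a mean level of at least 6. On the lower arm of chromosome 5 (identifiers from AT5G32 on) the median difference was 0.29 over 571 probe sets, with quartiles of 0.08 and 0.52. There, 82.7% of probe sets were above 0, against 49.8% of all 4274. Of them 326 were called higher (57.1%) and 32 lower (5.60%), against a background of 25.4% and 24.2%.

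Other arms moved the other way. On the upper arm of chromosome 3 the median was −0.19 over 549 probe sets, 25.1% of them above 0, with 54 called higher and 234 lower (42.6%). On the lower arm of chromosome 1 it was −0.16 over 462 probe sets, with 64 higher and 193 lower (41.8%). The short upper arm of chromosome 2 had a median of 0.16 over 101 probe sets. When all 13544 placed probe sets were taken, dim ones included, the medians were 0.070 on the lower arm of chromosome 5, −0.11 on the upper arm of chromosome 3, −0.073 on the lower arm of chromosome 1 and −0.015 on the upper arm of chromosome 2, where the sign turned. The remaining 6 arms had medians from −0.12 (upper arm of chromosome 4, 72 probe sets) to 0.07 (upper arm of chromosome 5).

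The shifts were alike with each sugar. On the lower arm of chromosome 5 the median of a pair ranged from 0.25 to 0.32 over the 4 sugars, on the upper arm of chromosome 3 from −0.22 to −0.17, on the lower arm of chromosome 1 from −0.17 to −0.15 and on the upper arm of chromosome 2 from 0.11 to 0.19. At 2-fold or more, 61 placed probe sets of the lower arm of chromosome 5 were higher and 14 lower, out of 1704 placed at any level, while over all 13544 placed probe sets 210 were higher and 122 lower. AT5G38160 and AT5G38170, the 2 largest decreases, lie on that arm and went against its median. Other genes named above lie there too, among them *PDC2*, AT5G51440, AT5G37670, *COR27*, *GTR2* and *HTB4*, which were higher, and *ERF104*, which was lower.

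**Figure D4:**
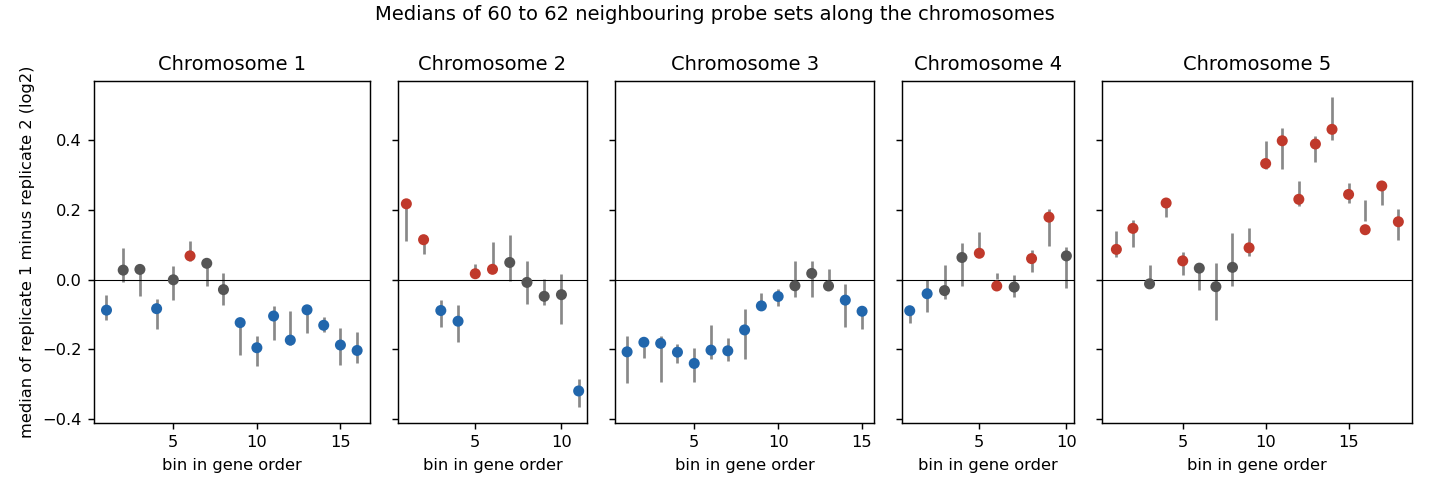
Median of replicate 1 minus replicate 2 (log2, vertical axis) over 60 to 62 neighbouring probe sets, in gene order along the 5 chromosomes (horizontal axis, bin number). Grey lines span the medians of the 4 sugar pairs, and points are red where these 4 are above 0, blue where they are below 0 and grey where they are mixed. The lower arm of chromosome 5 stands at up to 0.43 and the end of chromosome 2 at −0.32.

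In 70 bins of 60 to 62 neighbouring probe sets, the 4 pair medians were all above 0 in 23, all below 0 in 27 and mixed in 20. On chromosome 5 no bin had 4 pairs below 0 and on chromosome 3 none had 4 above 0. On chromosome 5 the upper-arm bins ranged from −0.02 to 0.22, the highest being that from AT5G11560 to AT5G14120, above some bins of the lower arm. Near the middle, the bin that ends at AT5G36230 had a median of 0.09 and the next, from AT5G36290, 0.33. The highest bin was that from AT5G51740 to AT5G55140 (0.43). On chromosome 3 the first 8 bins had medians from −0.24 to −0.14, and from AT3G47700 to AT3G57280 they lay between −0.02 and 0.02. On chromosome 1 the bins from AT1G33700 to the end had medians from −0.20 to −0.09. The last bin of chromosome 2, from AT2G43780 on, stood at −0.32, while the bin before it was at −0.04.

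Replicate 3 is set beside replicates 1 and 2 arm by arm. Its position is given as the median deviation of each array from the mean of the 12 arrays. Over all 4274 placed probe sets this averaged 0.03 in replicate 1, 0.02 in replicate 2 and −0.04 in replicate 3. These offsets were not subtracted, so the arm values alone do not show which replicate stood apart. On the lower arm of chromosome 5 the deviation was 0.15 to 0.22 on the arrays of replicate 1, −0.14 to −0.10 on those of replicate 2 and −0.09 to −0.02 on those of replicate 3. On the upper arm of chromosome 3 the values were −0.05 to −0.02, 0.11 to 0.16 and −0.09 to −0.05 for replicates 1, 2 and 3. On the lower arm of chromosome 1 replicate 3 (−0.05 to 0.02) lay between replicate 1 (−0.07 to −0.04) and replicate 2 (0.06 to 0.10).

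**Figure D5:**
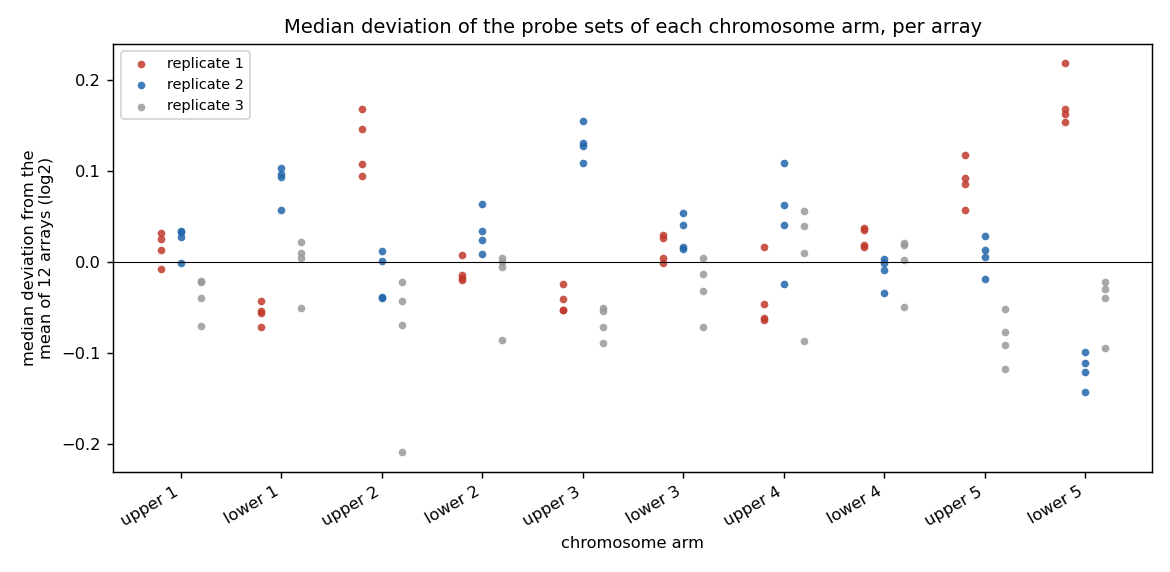
Median deviation (log2, vertical axis) of the probe sets of each chromosome arm (horizontal axis) from their mean over 12 arrays, 1 point per array, for replicates 1 (red), 2 (blue) and 3 (grey). On the lower arm of chromosome 5 the 4 arrays of replicate 1 lie at 0.15 to 0.22 and the other 8 below 0. On the upper arm of chromosome 3 those of replicate 2 lie at 0.11 to 0.16 and the other 8 below 0. The offset of each replicate over all placed probe sets was not subtracted.

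Some genes with large differences were neighbours in locus order. Among the 332 placed probe sets at least 2-fold different (210 higher and 122 lower, out of 13544 placed) there were 14 neighbouring pairs, 11 of them with the same sign. These counts are given with no test. How many such pairs the background would give was not worked out, and shared signs also arise where higher calls outnumber lower ones. Some pairs, such as AT5G23760 with AT5G23830, are not consecutive in locus number. They include AT5G38160 with AT5G38170, AT4G14010 with AT4G14020, *BGLU45* with *BGLU46* and AT5G43440 with AT5G43450 (2.28 and 1.63). Paralogous neighbours may share probes, which was not tested.

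More probe sets differed between replicate 3 and either of the others than between replicates 1 and 2. In 1 fit of all 12 arrays 6329 probe sets differed between replicates 1 and 2 (27.8%), 9856 between 1 and 3 (43.3%) and 10599 between 2 and 3 (46.6%), and these comparisons share arrays. The numbers at least 2-fold higher and lower were 417 and 235 for 1 against 2, 1114 and 964 for 1 against 3, and 1387 and 1326 for 2 against 3. By gene length, the median difference between replicates 1 and 2 was −0.04 for the longest 10% of genes and −0.03 for both the shortest 10% and all genes with a length.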

How the data were processed

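Total RNA of 12 flasks (4 sugars, replicate numbers 1 to 3) was labelled with a 3′ amplification kit and hybridized to ATH1 arrays, and the 8 arrays of replicates 1 and 2 were compared. The authors deposited log2 values per probe set, made by RMA with background correction and quantile normalization over arrays. For this, RMA, Affymetrix Expression Console and limma are named in the notes of the submitters, with no version in the sources used here. A second deposited table holds the authors' own comparisons and was not used, and 0 value columns belonged to no sample.

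Of 22810 probe sets, 64 controls were left out and 22746 analysed. The platform annotation gave 13513 of them 1 gene, 503 several and 8730 none. Of the 13513, 13436 matched the TAIR10.1 reference table, and 129 further probe sets were named through the study's list of 290 genes, whose ratios matched those of the deposited values within 1e-05.

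Differences were tested with limma 3.58.1 in R 4.3.3, with sugar species and replicate number as terms (3 residual degrees of freedom, 7.36 prior) and Benjamini-Hochberg adjustment at 0.05 over all probe sets. A second rule was a log2 difference of at least 1. The steps were tested on simulated data. Quantile normalization makes the arrays' distributions nearly equal, so that a shift common to most genes cannot be seen. Array data carry no read depth, so precision is limited by how many arrays there were. The replicate numbers were taken to pair the arrays, since the 4 paired differences had correlations of 0.748 to 0.830. This basis comes from the data, as no source states what a number marks.

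Genes named are the 15 largest differences in each direction among those called, without overlap and with 1 gene, up to 5 called members of each list, and the genes that the study's text names. Others are said to have been chosen after their values were seen. The members and the gene lists were chosen with earlier results of these data known. Alternatives were no sugar block, all 12 arrays, another variance prior, array weights, a minimum mean level of 6, 2 other scalings, probe sets with 1 gene, the methods' t-test and each pair left out. Those on chromosome arms, and the variance shares above a mean level of 6, were chosen after seeing the data.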

Additional observations from a re-analysis of the deposited data

Results flagged for a closer look

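Groups of 4 arrays were looked at for 94 genes, the chromosome arm medians and the control measures in each replicate. In 222 such groups, 14 (6.31%) had 1 array whose gap to the nearest of the others was large against the range of the group by Dixon's critical value for 4 samples, which chance alone gives in about 1 of 20 groups. The 4 arrays of a group carry different sugars.

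On the Xyl arrays, AT5G40980 was at 5.65 in replicate 1 (others 6.05 to 6.13), *XTH18* at 5.25 in replicate 1 (5.04 to 5.06), AT5G67090 at 3.87 in replicate 2 (4.01 to 4.03), *TOR* at 6.68 in replicate 2 (6.11 to 6.18) and AT2G28010 at 5.60 in replicate 2 (5.92 to 5.97). The GAPDH 3′ minus 5′ signal was 2.05 on the Xyl array of replicate 1 (others 2.22 to 2.25). On the Fru arrays, *GTR2* was at 8.47 in replicate 1 (8.35 to 8.37), and in replicate 2 AT5G37670 was at 4.16 (3.31 to 3.35), *LBD16* at 3.81 (4.08 to 4.09) and *APS3* at 7.45 (6.82 to 6.90). On the Glc arrays, *BBM* was at 4.01 in replicate 1 (3.89 to 3.91), AT3G57540 at 5.65 in replicate 2 (4.50 to 4.59) and the GAPDH 3′ probe set at 10.9 in replicate 2 (11.1 to 11.2). On the Suc array of replicate 1, AT5G43870 was at 7.27 (7.08 to 7.11).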

How the results depend on the processing

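The 7555 calls between replicates 1 and 2 became 5750 to 6603 with 1 sugar pair left out and 6329 to 7923 with no sugar block, all 12 arrays, another variance prior, array weights or another scaling. They became 4772 when only probe sets with a mean level of at least 6 were tested and 4081 among probe sets with 1 gene, where fewer were tested. The methods' t-test gave 2954 at its unadjusted threshold when unpaired and 1598 when paired, and 5108 and 3321 after Benjamini-Hochberg. The 652 probe sets at 2-fold became 664 to 684 with 1 pair left out, 300 above a mean level of 6 and 333 with 1 gene. Called list members numbered 124 of 368 in the main fit, where 33.2% of all probe sets were called. Above a mean level of 6 they numbered 82 of 131, where 4772 of all 8076 probe sets were called. The share of replicate number was 73.6% there.

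For Fru, Glc and Suc against Xyl, the replicate block gave 251, 301 and 215 probe sets and the level filter 7, 4 and 4. Leaving out 1 array gave 1 to 13 for Fru, with over 1.5 times fewer without a Fru array (8 and 1) or a Xyl array (6 and 4). It gave 2 to 18 for Glc, with over 1.5 times fewer without any Fru (8) or Suc array (5), Glc replicate 1 (2) or Xyl replicate 2 (4). It gave 3 to 17 for Suc, with over 1.5 times fewer without any array other than those of Fru.

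With all placed probe sets the arm medians were −0.073 (lower arm of chromosome 1), 0.070 (lower 5), −0.11 (upper 3), −0.015 (upper 2) and −0.0067 (lower 4, 0.04 before), the last 2 with the sign turned. Above a mean level of 8 they were −0.19 (lower 1), 0.25 (lower 5) and −0.16 (upper 3), and with the 8 arrays quantile normalized again −0.18 (lower 1). The cause was not tested. Of 1071 values of 94 named genes under alternatives, 1015 kept their side of the threshold, 54 lost the call and 2 gained one. Among values of the 88 genes called in the main fit 0 changed sign, and for the uncalled genes the sign was not compared. Without the sugar block 14 genes lost it, *PS2* (adjusted p = 0.052), *TOR* (0.053) and *ERF104* (0.058) among them.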
